A study of Homo sapiens with 6 samples.

Results

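Acetylation of lysine 27 of histone H3 (H3K27ac) was profiled by ChIP-seq in the human cell line SU-CCS-1, grown from a clear cell sarcoma and carrying the EWSR1::ATF1 fusion. 3 H3K27ac samples and 3 input samples came from the same line with the same genotype and no treatment or fusion-negative control, and they share 1 merged peak list of 30784 peaks. The regions described here are the short gaps in that list in which a gene starts: stretches of 50 to 1000 bases between neighbouring peaks that hold at least 1 transcript start site of GENCODE version 44, on genome build hg38. They were chosen by the peak coordinates, the measured values of this assay, together with the annotation, so gap and peak widths are given as descriptions with no test. Of 30760 gaps between neighbouring peaks 55.8% held a start site, and of the 6341 gaps of 50 to 1000 bases 588 did (9.27%). The list has no score, no signal and no values per sample, so the depth behind each gap cannot be read from it and no replicate spread can be given. Intervals below are 95% intervals for counting alone, by the Wilson method for shares and by order statistics for medians, and they take gaps and start sites as separate although neighbouring gaps can share a peak and a gap can hold many start sites.

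At an active promoter the start site of transcription lies in a stretch with few nucleosomes, where transcription factors and RNA polymerase II assemble. The nucleosomes on either side carry H3K27ac, which histone acetyltransferases of the p300/CBP family deposit. Broad peak calling usually joins these flanks into a single peak across the start site, and a gap is left where the call ends on each side of it. The ATF1 part of the fusion is a basic leucine zipper of the ATF/CREB family, whose known DNA element is TGACGTCA.

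The reference sequence at the start site of 6 such gaps is printed here so that the elements counted later can be seen in place. Each runs 5′ to 3′ on the gene's own strand from 100 bases before the annotated canonical start through the first 20 bases of the transcript (120 bases in all, hg38), and capitals mark the element named. A gene could be shown for an element where the element lay in these 120 bases, no exon of another gene did and the canonical start was in the gap. Of 57 such genes for CCAAT, 9 for the TATA box, 20 for ETS and 5 for NRF1 the 1 with the widest flanking peaks is shown. MLF2 was the only such gene considered for TGACGTCA, and FOSB is shown because it is the AP-1 gene with its start in a gap.
ID2, an inhibitor of DNA binding of the helix-loop-helix type, CCAAT box, chr2:8681956-8682075, plus strand: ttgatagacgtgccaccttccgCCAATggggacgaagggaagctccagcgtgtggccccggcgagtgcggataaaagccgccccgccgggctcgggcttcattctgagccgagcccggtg
H3C2, a replication-dependent histone H3 gene, TATA box, chr6:26032080-26032199, minus strand: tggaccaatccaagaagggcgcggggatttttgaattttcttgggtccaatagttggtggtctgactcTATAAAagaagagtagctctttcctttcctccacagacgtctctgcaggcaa
MLF2, ATF/CREB element, chr12:6753122-6753241, minus strand: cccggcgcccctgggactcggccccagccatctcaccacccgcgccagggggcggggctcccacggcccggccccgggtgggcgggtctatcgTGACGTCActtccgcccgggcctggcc
DALRD3, ETS element on both strands, chr3:49018561-49018680, minus strand: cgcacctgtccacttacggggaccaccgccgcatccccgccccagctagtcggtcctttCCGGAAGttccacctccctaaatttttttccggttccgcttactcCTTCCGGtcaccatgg
ENTPD6, NRF1 element, chr20:25195612-25195731, plus strand: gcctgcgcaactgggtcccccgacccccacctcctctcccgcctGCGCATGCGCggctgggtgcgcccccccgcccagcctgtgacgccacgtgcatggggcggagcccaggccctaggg
FOSB, TATA box and GC boxes, chr19:45467896-45468015, plus strand: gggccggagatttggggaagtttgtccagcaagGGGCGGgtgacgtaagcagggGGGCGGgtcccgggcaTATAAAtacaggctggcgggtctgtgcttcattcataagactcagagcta

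In ID2 the CCAAT box began 78 bases before the start. The H3C2 TATA box began 32 bases before the start, and the MLF2 element began 7 bases before the start and reached its first transcribed base. An ETS match in DALRD3 began 41 bases before the start and a second lay within the printed transcript bases. The 2 overlapping NRF1 matches in ENTPD6 began 56 and 55 bases before its start. These matches are letters in the reference and were not assayed for binding.

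The 588 gaps had a median width of 450 bases (interval 410 to 480, quartiles 290 and 670), against 380 bases (370 to 390) in the 5753 short gaps without a start site. The share of short gaps that held a start site was 4.40% (2.80 to 6.85) at 50 to 200 bases, 8.28% at 210 to 400, 9.10% at 410 to 600, 12.5% at 610 to 800 and 13.8% (11.2 to 17) at 810 to 1000 bases. A wider gap covers more bases, so its chance of holding an annotated start is larger by construction. Gaps under 210 bases were few in both classes, at 18 of 588 (3.06%) with a start site and 391 of 5753 (6.80%) without. None of the 54 gaps under 50 bases held a start site. At the lower limit the narrowest gap with a canonical protein-coding start was that of ETV1, an ETS family transcription factor, at 90 bases, and at the upper limit it was that of IFITM10 at exactly 1000 bases. Just outside the limit lay ZNF251, with a gap of 1080 bases, and 33 gaps of over 1000 and up to 1100 bases held a start site, against 38 of 900 to 1000 bases.

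**Figure D1:**
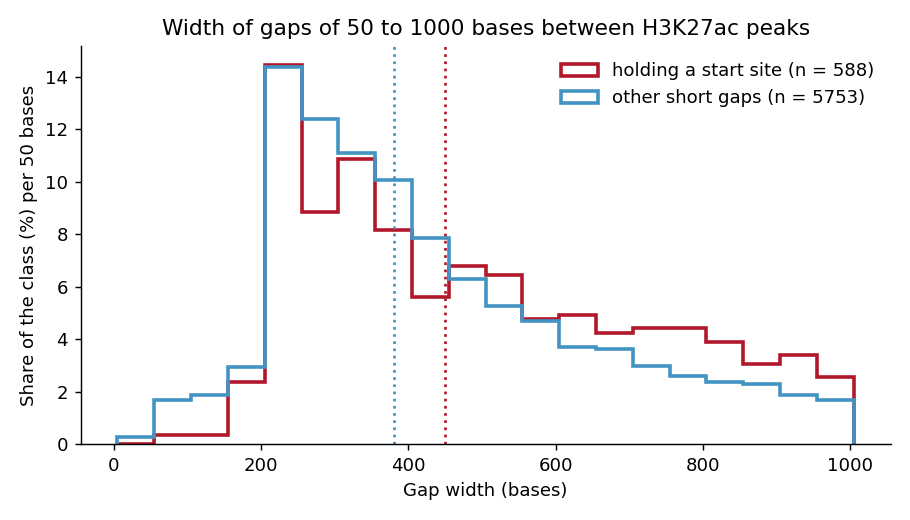
Share of each class of short gap (y axis, percent per 50 bases of width) by gap width (x axis, bases), for the 588 gaps holding a start site and the 5753 others. Dotted lines are the medians, 450 and 380 bases. Both classes rise sharply at about 210 bases, and the gaps with a start site have the heavier right side.

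A canonical start is that of the transcript Ensembl takes to represent a gene, and any other annotated start is called alternative. In 173 of the 588 gaps (29.4%, 25.9 to 33.2) the canonical start of a protein-coding gene lay in the gap. A further 116 gaps (19.7%) held the canonical start of another kind of gene only, and 299 (50.9%, 46.8 to 54.9) held alternative starts only. The gaps held starts of 649 genes, of which 458 were protein-coding and 148 were long non-coding RNA genes. Those 458 are 2.29% of the 20033 protein-coding genes. The canonical start of 10725 protein-coding genes (53.5%) lay inside a peak, that of 185 (0.923%, 0.800 to 1.07) in a short gap and that of 9123 in a longer gap or beyond the outermost peaks. Among genes with the canonical start in a peak or a short gap, 1.70% (1.47 to 1.96) had it in the gap. The 299 gaps with alternative starts only gave 269 pairs of a gap and a protein-coding gene starting in it, and the gene's canonical start lay in the upstream flanking peak for 62 of these, in the downstream flanking peak for 51, in another peak for 110 and in no peak for 46. 1 start site was annotated in 330 of the gaps (56.1%), and the highest number was 18.

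Start sites were on the plus strand alone in 274 gaps, on the minus strand alone in 252 and on both strands in 62 (10.5%, 8.31 to 13.3). Of these 62, 47 were divergent, with the minus-strand starts to the left of the plus-strand starts, as at bidirectional promoters. The nearest divergent starts were a median of 126 bases apart (93 to 167), with a range of 12 to 516. Both strands were used in 41 of the 173 gaps with a canonical protein-coding start (23.7%, 18.0 to 30.6) and in 6 of the 299 gaps with alternative starts only (2.01%, 0.923 to 4.31). The gap of 290 bases shared by the histone genes H2BC11 and H2AC11 is of this form, with 1 start 24 bases from the left edge and the other 17 bases from the right edge. COX7B, a subunit of cytochrome c oxidase, shared a gap of 360 bases with MAGT1.

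Start sites were not spread evenly across the gaps: read in the direction of transcription, more of them lay near the downstream peak. Of 1482 start sites, 226 (15.2%, 13.5 to 17.2) lay in the upstream 25% of their gap, 735 (49.6%, 47.1 to 52.1) in the central 50% and 521 (35.2%, 32.8 to 37.6) in the downstream 25%. The 1482 sites came from 588 gaps with up to 18 sites each, so these intervals are too narrow. The 10% of the gap width beside the upstream peak held 78 and the 10% beside the downstream peak held 239. The 185 canonical protein-coding starts leaned the same way, at 12.4%, 45.4% and 42.2% of the starts. Their median distance was 121 bases to the downstream peak (81 to 196) and 264 bases to the upstream peak (232 to 289). The downstream edge was within 100 bases of 87 of the 185 (47.0%, 40 to 54.2), and the upstream edge was within 100 bases of 20 (10.8%, 7.11 to 16.1). Over the 526 gaps with starts on 1 strand, with 1 value per gap, the distance to the downstream edge minus the distance to the upstream edge had a median of -71 bases (-115 to -45).

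**Figure D2:**
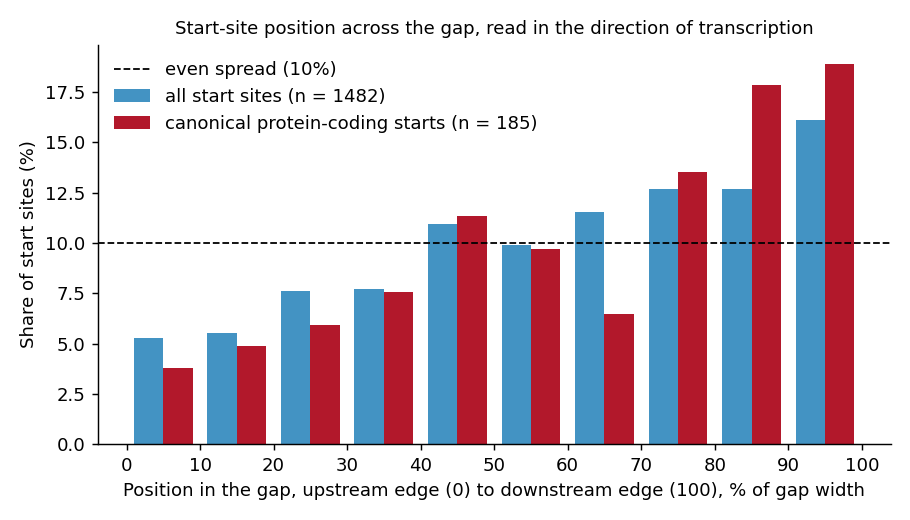
Share of start sites (y axis, percent) by position in the gap (x axis, percent of gap width from the upstream to the downstream edge, in 10 bins), for all 1482 start sites and for the 185 canonical protein-coding starts. The dashed line is an even spread. Both sets are lowest beside the upstream peak and highest beside the downstream peak.

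The peak upstream of the start was the wider of the pair more often than the peak downstream. In the 526 gaps with starts on 1 strand the upstream peak had a median width of 1045 bases (970 to 1120) and the downstream peak 810 bases (770 to 870), and the paired difference, downstream minus upstream, had a median of -130 bases (-190 to -50). The downstream peak was wider in 221 (42.0%, 37.9 to 46.3), the upstream peak in 302, and 3 pairs were equal. By kind of start the interval of the difference lay below 0 in the 293 gaps that held no canonical start (-250 bases, -440 to -110). It included 0 for canonical protein-coding starts (-40 bases, -140 to 70, with the downstream peak wider in 60 of 132) and for canonical starts of other genes (-90 bases, -220 to 30). It also included 0 in gaps up to 500 bases (-60 bases, -140 to 30). The order was the same on either strand. On the plus strand the medians were 1050 bases upstream and 790 downstream, with the downstream peak wider in 117 of 274 (42.7%), and on the minus strand they were 1035 and 840 bases, with the downstream peak wider in 104 of 252 (41.3%). In genome order, the left peak had a median of 1050 bases at plus-strand gaps and 840 bases at minus-strand gaps, and the right peak 790 and 1035 bases. At the 62 gaps with starts on both strands the left and right peaks had medians of 900 and 845 bases, and the right was the wider in 25.

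The order of widths went with where other start sites lay. A wider peak covers more bases and is more likely to hold an annotated start, so this order arises in part by construction. Where only the upstream peak held an annotated start site, the upstream peak had a median of 1600 bases and the downstream peak 670, and the downstream peak was wider in 27 of 153 (17.6%, 12.4 to 24.5). With a start site in the downstream peak only, the medians were 730 and 1115 bases, and the downstream peak was wider in 77 of 110 (70.0%, 60.9 to 77.8). When neither peak held a start site the medians were 840 and 710 bases, the downstream peak was wider in 75 of 165 (45.5%, 38.0 to 53.1), and the interval of the paired difference included 0 (median -40 bases, -120 to 40). Short gaps inside a gene but without a start site had the same order, with medians of 1080 and 870 bases and the downstream peak wider in 1639 of 3781 (43.3%, 41.8 to 44.9). Among those with no start site in either peak the share was 49.3% (47.3 to 51.2). A lean towards the upstream peak was therefore not particular to gaps with a start site.

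**Figure D3:**
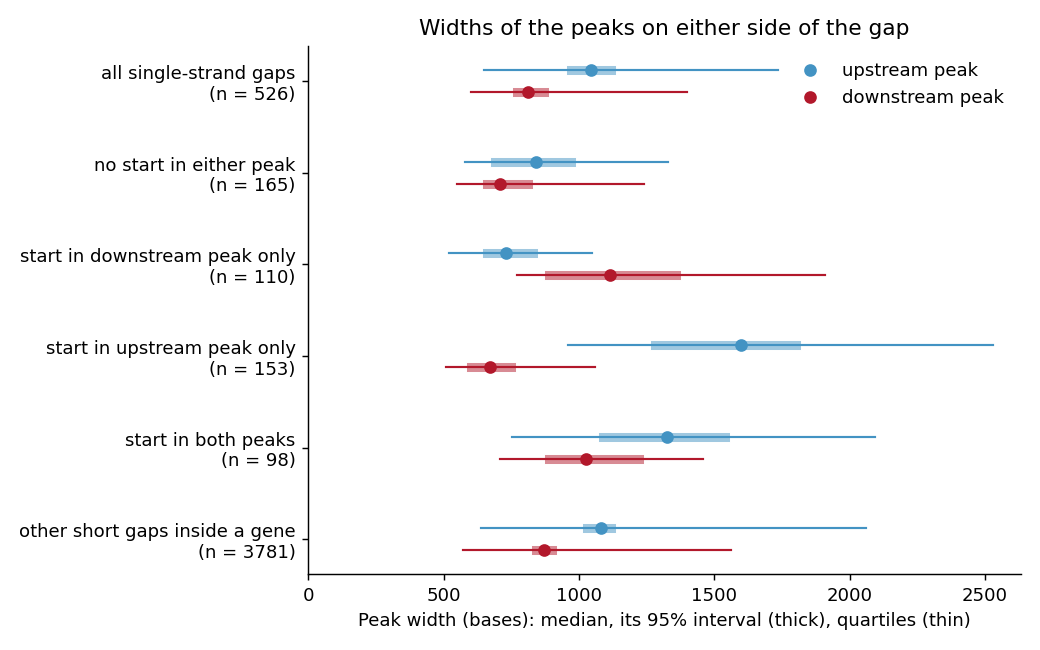
Peak width in bases (x axis) on the upstream and downstream side of the gap, by whether the flanking peaks hold a start site (y axis groups, number of gaps in parentheses). Points are medians, thick bars their 95% intervals and thin bars the quartiles. The order of the 2 sides turns over between a start in the downstream peak only and a start in the upstream peak only. A wider peak is more likely to hold a start by construction.

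Widths of the flanking peaks varied widely from gene to gene. The widest pair around a canonical protein-coding start belonged to ID2, whose gap of 270 bases (chromosome 2, 8681821 to 8682090) lay between an upstream peak of 5730 and a downstream peak of 1990 bases. Its start was 34 bases from the downstream peak. At DALRD3 the upstream peak was 4340 bases wide and the downstream peak 470, around a gap of 480 bases. IFITM10 (4770 and 1030 bases), HOXB7, a homeobox transcription factor (4060 and 750 bases), H3C2 (3680 and 600 bases) and FAM72C (2690 and 480 bases) were also among the genes with the largest upstream excess. In the opposite direction GTF2IRD2B had 640 bases upstream and 4200 downstream, ENTPD6, a nucleoside diphosphatase, had 650 and 3960, ANKRD54 had 580 and 3660, and PRPSAP1 had 500 and 2680. FAM72C and GTF2IRD2B have near-identical copies elsewhere in the genome, so the placing of their reads is uncertain.

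The gaps with start sites were rich in G and C. Their median GC content was 55.8% (54.1 to 57.2), against 42.6% (42.3 to 42.9) in other short gaps and 44.2% in the 1877 of those that lie beside a peak holding a start site. The ratio of observed to expected CpG, which is high in CpG islands, had a median of 0.538 (0.465 to 0.616) against 0.251 (0.245 to 0.256). Compared with its own flanking peaks, a gap with a start site had the higher GC content in 294 of 588 (50%), while other short gaps did in 1217 of 5753 (21.2%, 20.1 to 22.2). The values differed by kind of start. Gaps with a canonical protein-coding start had a median GC content of 66.7% (63.4 to 68.2) and a CpG ratio of 0.865, gaps with the canonical start of another gene 52.9% and 0.409, and gaps with alternative starts only 50.6% (49.2 to 51.9) and 0.364. Among the genes named here the GC content ran from 35.7% in the first gap of CREM to 78.7% in that of SLC25A10, a mitochondrial dicarboxylate carrier, and 79.4% in that of LY6E, a membrane-anchored surface protein.

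Promoters with the canonical start in a short gap held the CCAAT box, the element bound by NF-Y, more often than promoters with the start inside a peak. Searched on both strands in 300 bases (250 before the start and 50 from it), CCAAT was present in 106 of 185 gap promoters (57.3%, 50.1 to 64.2), in 3788 of 10725 peak promoters (35.3%, 34.4 to 36.2) and in 36.1% of all protein-coding promoters. In percentage points the excess was largest at 100 to 51 bases before the start, the usual place of a CCAAT box. A match began there in 32.4% of gap promoters (26.1 to 39.5) and 16.7% of peak promoters (16 to 17.4). The excess was not confined to that place: every other 50-base stretch of the 250 bases before the start showed it, without overlap of intervals. Just upstream of that place the shares were 23.2% (17.7 to 29.8) and 10.4% (9.82 to 11.0), a larger excess in proportion. In the stretch farthest from the start they were 13.0% and 7.05%, and in the nearest 13.5% and 7.08%. Over the whole window, gap promoters also had the higher share at lower and at higher GC content. Under 65% GC the shares were 61.6% (51.1 to 71.2) and 44.4% (42.9 to 45.9), and at 65% or more they were 53.5% (43.8 to 63.0) and 29.5% (28.4 to 30.6). Without the replication-dependent histone genes they were 55.6% and 35.1%. The median GC content of the promoter window was 65.3% for gap promoters (63.7 to 67.3) and 67.3% for peak promoters.

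In percentage points the other elements differed less. TATAAA, the TATA box, was found in 16 of 185 gap promoters (8.65%, 5.39 to 13.6) and 4.18% (3.81 to 4.57) of peak promoters, and without the histone genes in 6.18% (3.49 to 10.7) and 3.84% (3.49 to 4.22), where the intervals overlapped. In the 150 bases nearest the start, 100 before and 50 from it, TATAAA was in 7.03% (4.15 to 11.7) and 2.03% (1.78 to 2.32). These 150-base shares include the histone genes, of which 5 of 7 gap promoters held TATAAA in the 300 bases. GGGCGG, the GC box bound by SP1-type factors, was in 72.4% (65.6 to 78.4) and 78.3% (77.5 to 79.0), and in the 150 bases in 51.9% (44.7 to 59.0) and 64.2% (63.3 to 65.1), where the intervals did not overlap. CCGGAAG, an ETS element, was in 22.2% and 21.5%, GCGCATGCG (NRF1) in 5.41% and 4.19%, AAGATGGCG (YY1) in 5.95% and 4.67%, and TCTCGCGAG (BANP) in 1.62% in both. For TGACGTCA the shares were 2.70% (1.16 to 6.17) and 3.78% (3.43 to 4.15), and for the looser TGANNTCA, which takes in TGACGTCA, 8.65% and 7.55%. TGAGTCA, the AP-1 element, was in 1 gap promoter (0.541%, 0.0955 to 3.0) and 2.10% (1.84 to 2.39) of peak promoters. Among all protein-coding promoters the shares were 9.71% for TATAAA, 61.3% for GGGCGG, 14.1% for CCGGAAG, 2.70% for GCGCATGCG, 2.84% for AAGATGGCG, 1.0% for TCTCGCGAG, 2.69% for TGACGTCA, 9.94% for TGANNTCA and 3.57% for TGAGTCA.

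**Figure D4:**
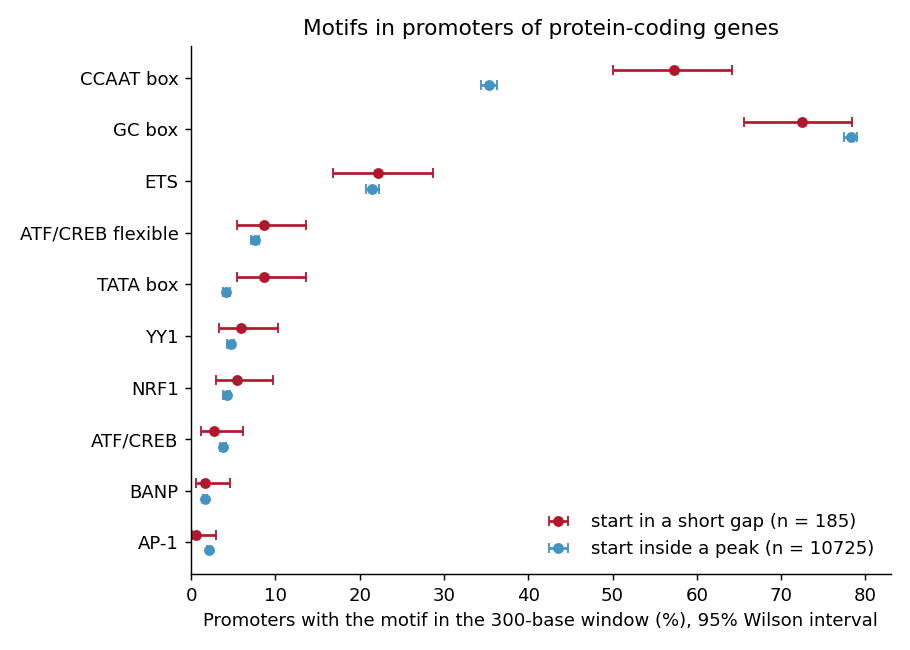
Share of protein-coding promoters (x axis, percent, with 95% Wilson intervals) that hold each of 10 motifs (y axis) in the 300-base window, for the 185 promoters with the canonical start in a short gap and the 10725 with it inside a peak. CCAAT, at 57.3% against 35.3%, is the element whose intervals lie farthest apart.

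Within the gaps themselves TGACGTCA occurred 14 times, in 14 of the 588 gaps (2.38%, 1.42 to 3.96). That is 48.4 matches per megabase of gap, against 18.0 per megabase in the peaks flanking them, and in the other short gaps the densities were 21.6 and 13.2. The start sites were close to it in several cases. The nearest start was within the element in MLF2 and ESYT2, and 1 base away in LINC02156. It was 3 bases away in SLC25A25, a mitochondrial carrier, 13 bases away in CREM, 48 in PLEKHA5, 70 in DDX42, an RNA helicase gene, and 76 in IPO5, an importin gene. In LANCL2 it was 193 bases and in GTF2IRD2B 569. CCAAT had 1924 matches per megabase of gap and 1094 in the flanking peaks, and CCGGAAG had 388 and 136. GCGCATGCG had 72.7 and 14.1, AAGATGGCG 62.3 and 16.7, and TCTCGCGAG 24.2 and 0.643. The looser TGANNTCA had 457 and 448, and 655 per megabase in the other short gaps. A higher density in the gaps was therefore not particular to TGACGTCA. The densities have no intervals and were not matched for CpG content. The gaps named here for TGACGTCA were chosen after their matches were seen.

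Replication-dependent histone genes, which supply histones in S phase, had the canonical start in a short gap in 7 of 69 (10.1%, 5.00 to 19.5). Of all protein-coding genes 0.923% did, and of those with the canonical start in a peak or a short gap 1.70%. Counting any start gave the same 7 of 69, against 2.29% of all protein-coding genes. The canonical start of 57 histone genes lay inside a peak. Their gaps were narrow and alike. H2BC26 had a gap of 190 bases, H2BC5 220, H3C3 230, H3C2 250, H2AC13 270, and H2BC11 and H2AC11 shared 1 of 290 bases. The start lay nearer the downstream than the upstream peak in each. The distance to the downstream peak was 17 bases in H2AC11, 24 in H2BC11, 27 in H2AC13, 37 in H2BC26, 38 in H2BC5 and 46 in H3C3. In H3C2 the start was near the middle of the gap, at 108 bases from the downstream and 141 from the upstream peak. All lay on chromosome 6 except H2BC26 on chromosome 1. Widths of the flanking peaks ranged from 600 bases (downstream of H3C2 and of H3C3) to 3680 bases (upstream of H3C2). A CCAAT box was present in 7 of these 7 promoters and 48 of the 57 histone promoters inside a peak, and a TATA box in 5 of 7 and 38 of 57. Histone genes of a class are near-identical in their coding parts, so reads there may have been placed at another copy.

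The lists of protein synthesis genes had shares with overlapping intervals. Against the 2.29% of all protein-coding genes with any start in a short gap, and the 0.923% with the canonical start, they gave the following counts. The canonical start lay inside a peak for 53.5% of all protein-coding genes, but for 49 of 56 initiation factor and 76 of 89 cytosolic ribosomal protein genes. Among all with it in a peak or a short gap, 1.70% had it in the gap, the closer background for canonical counts. For any start no such background was computed. Of 56 translation initiation factor genes 5 had a start in a short gap (8.93%, 3.87 to 19.3), 2 of them the canonical start. EIF3D had a gap of 370 bases, 105 bases to the downstream peak and peaks of 950 and 810 bases, and EIF2S2 a gap of 400 bases with peaks of 680 and 1010 bases. Cytosolic ribosomal protein genes had 5 of 89 (5.62%, 2.42 to 12.5), of which RPS2 had the canonical start in the gap. In RPS2 the gap was 570 bases wide and held 12 start sites on both strands, shared with SNHG9. RPL18, RPL27, RPL8 and RPS3 had alternative starts there. MRPL12 was the 1 member of 78 mitochondrial ribosomal protein genes (1.28%, 0.227 to 6.91). It had a gap of 740 bases between an upstream peak of 2980 and a downstream peak of 900 bases. Aminoacyl-tRNA synthetase genes had 2 of 37, AARS1 and WARS1, neither by the canonical start, and splicing factor genes 2 of 46, SNRPD2 and SNRPG.

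The remaining lists lay close to the background or had few members. Zinc finger genes with a ZNF symbol had 16 of 509 (3.14%, 1.94 to 5.04), 8 by the canonical start. ZNF277 had a gap of 250 bases with the start 15 bases from the downstream peak, and ZNF407 a gap of 290 bases with the start on its last base. Solute carrier genes had 7 of 374 (1.87%, 0.910 to 3.81). SLC35G6 had the widest flanking peaks of these, 3620 bases upstream and 3350 downstream of a gap of 780 bases, with the start 354 bases from the downstream peak. Respiratory chain and ATP synthase genes had 2 of 96, COX7B and CYC1, and proteasome subunit genes 1 of 48, PSMD5. The list of RNA polymerase II and Mediator genes had 2 of 74, POLR2I and GTF2IRD2B, and the latter entered by its symbol although it belongs to the GTF2I repeat family. No start in a short gap was found for 23 vacuolar ATPase genes (0 to 14.3%), 18 immediate early genes (0 to 17.6%), 44 collagen genes (0 to 8.03%), 55 keratin genes (0 to 6.53%) or 400 olfactory receptor genes (0 to 0.951%). The canonical start of 16 of the 18 immediate early genes lay inside a peak, and that of 1 of the 55 keratin and 1 of the 400 olfactory receptor genes did.

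Among the genes closest to the biology of clear cell sarcoma, a tumour with melanocytic features, a few fell in these gaps. The lists are short. The intervals of the AP-1, ATF/CREB and replication lists include the 2.29% of all protein-coding genes, and that of the melanocyte list, with 2 of 18 (11.1%, 3.10 to 32.8), lies just above it. This was 1 of 21 lists looked at. Up to 500 bases, where 272 of 20033 protein-coding genes had a start in a gap, the melanocyte share was 5.56% (0.988 to 25.8). That interval includes the share of all protein-coding genes. Of these 18 melanocyte lineage genes 9 had the canonical start inside a peak and 1 in a short gap. The latter was PMEL, which encodes the fibril protein of the melanosome. Its gap on chromosome 12 ran from 55965961 to 55966220 (260 bases) and held 6 start sites, and the canonical one at 55966042 was 178 bases from the upstream and 81 bases from the downstream peak. The flanking peaks were 1660 bases upstream and 2330 bases downstream. The PMEL gap had a GC content of 50.4% and a CpG ratio of 0.0606, the lowest of the gaps with a canonical protein-coding start. TFAP2A, a transcription factor of the neural crest, had an alternative start in a gap of 820 bases, while its canonical start lay 10480 bases away in a peak of 6790 bases.

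FOSB was the 1 of 10 AP-1 genes with a start in a short gap (10%, 1.79 to 40.4). It had a gap of 970 bases (chromosome 19, 45467931 to 45468900). Its start was 65 bases from an upstream peak of 460 bases and 904 bases from a downstream peak of 790 bases. Most of the FOSB gap therefore lay past the start, whereas most of each histone gap lay before it.

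CREM was the 1 of 18 ATF/CREB family genes (5.56%, 0.988 to 25.8). It encodes the cAMP-responsive element modulator and is known for an internal promoter that produces the repressor ICER. Its canonical start lay inside a peak of 3120 bases, and the gap starts were alternative ones 68281 bases or more downstream of it. There were 2 gaps, of 370 and 480 bases (chromosome 10, 35194791 to 35195160 and 35195781 to 35196260), on either side of a shared peak of 620 bases, with an outer peak of 1350 bases upstream and of 2280 bases downstream. The first gap held 3 start sites and the second 5, and TGACGTCA lay in the second. Of 20 replication origin and clamp genes, MCM7, a subunit of the replicative helicase, had an alternative start in a gap of 480 bases shared with AP4M1, and its canonical start was in the adjoining peak of 1210 bases. CREM was among 19 protein-coding genes with start sites in 2 short gaps, together with AKT1, BECN1, SEPTIN9 and SLC1A3 among others.

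By chromosome, the share of short gaps that held a start site was highest on chromosome 17 (79 of 366, 21.6%) and chromosome 16 (55 of 264, 20.8%), followed by 19 (50 of 318, 15.7%), 8 (47 of 364, 12.9%) and 14 (24 of 198, 12.1%). The canonical protein-coding starts among them were concentrated on 3 chromosomes, a pattern noticed after the values were seen. Of the canonical protein-coding starts that lay in a peak or a short gap, the gap held 28 of 365 on chromosome 8 (7.67%, 5.36 to 10.9), 28 of 488 on chromosome 16 (5.74%, 4.0 to 8.17) and 31 of 459 on chromosome 17 (6.75%, 4.80 to 9.43). On all other chromosomes together it held 98 of 9598 (1.02%, 0.839 to 1.24). Within these chromosomes the starts came from long blocks. They made up 25 of 126 (19.8%, 13.8 to 27.7) on chromosome 8 from 95 Mb to its end, 26 of 257 (10.1%, 7.0 to 14.4) on chromosome 16 up to 35 Mb and 30 of 184 (16.3%, 11.7 to 22.3) on chromosome 17 from 40 Mb on. In the rest of the same chromosomes they made up 3 of 239, 2 of 231 and 1 of 275. The highest share of any 5-Mb stretch with at least 20 such starts was 11 of 28 (39.3%) at 80 to 85 Mb of chromosome 17, followed by 16 of 57 (28.1%) at 140 to 145 Mb of chromosome 8. On chromosome 6, 6 of 79 starts at 25 to 30 Mb were in gaps, the stretch of the histone genes above.

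**Figure D5:**
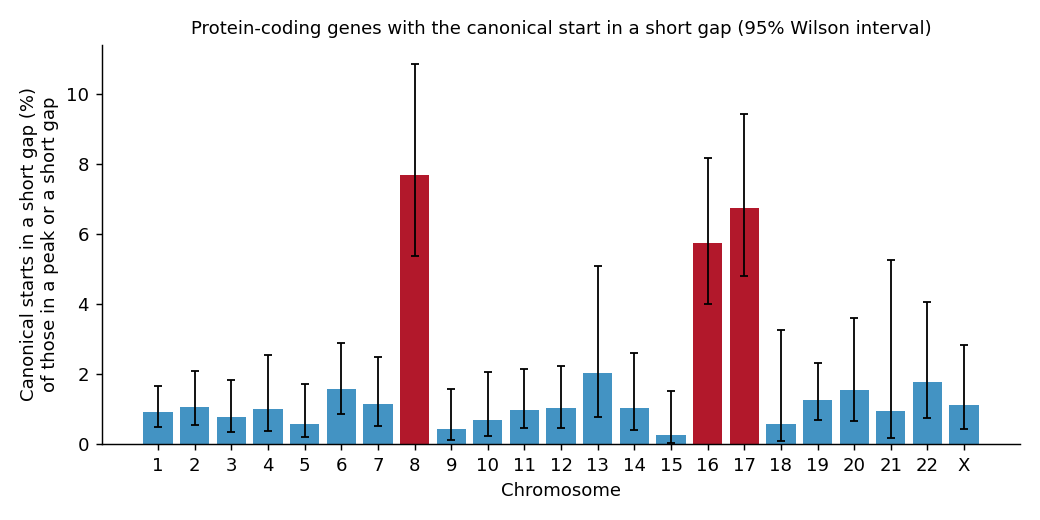
Protein-coding genes with the canonical start in a short gap, as a percent of those with it in a peak or a short gap (y axis, with 95% Wilson intervals), by chromosome (x axis, without Y). Chromosomes 8, 16 and 17, in red, lie between 5.74% and 7.67%, and the others between 0.272% and 2.02%.

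Other measures of the peak list moved with these blocks. Peaks there had a median width of 895 bases against 1070 outside, gaps with start sites a median of 615 against 380 bases, and 41.5% of protein-coding genes had the canonical start in a peak or a short gap against 55.4%. Across the blocks, short gaps as such were not much more common, at 24.1 per 100 peaks against 20.3 outside. However, 154 of 604 held a start site (25.5%, 22.2 to 29.1), against 434 of 5737 (7.56%, 6.91 to 8.28). Their kinds differed too: 74 of the 154 (48.1%, 40.3 to 55.9) held a canonical protein-coding start, against 99 of 434 (22.8%, 19.1 to 27). The part of these differences in the concentration was not tested. The 5 gaps with the most start sites all lay in these blocks. SLC52A2, a riboflavin transporter, and FBXL6 shared a gap of 940 bases with 18 start sites, and NAT9 with TMEM104, EIF3E with EMC2, LY6E, and PUF60, a splicing factor, had 16 each. In EIF3E the start in the gap was an alternative one.

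Without chromosomes 8, 16 and 17 there remained 407 gaps with a start site of 5347 short gaps (7.61%). The median width of gaps with a start site was then 390 bases, near the 380 bases of other short gaps over all chromosomes. Several other values above depended on these chromosomes in size but kept their direction. The share of start sites in the central 50% was 44.4% (41.1 to 47.7) and the downstream peak was wider in 39.9% (35.1 to 45.0), with a median paired difference of -150 bases. The GC content exceeded that of other short gaps by 9.38 percentage points in place of 13.2. CCAAT was present in 65 of 98 gap promoters (66.3%, 56.5 to 74.9) against 35.5% (34.5 to 36.4) of peak promoters, and on the 3 chromosomes in 41 of 87 (47.1%, 37.0 to 57.5) against 34.3% (31.7 to 37.0). The CCAAT share was thus higher in gap promoters in both sets of chromosomes, but on the 3 the intervals just overlapped. The excess was larger in value outside the 3, and the difference between the sets was not tested.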

How the data were processed

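Chromatin from SU-CCS-1 cells was immunoprecipitated for H3K27ac (3 samples) beside 3 input samples. Per the labels and the study's methods, the authors mapped the reads with BWA 0.7.10-r789 to hg38, removed duplicates with samtools, called broad peaks over input with MACS2 2.2.6 and removed denylisted regions. How replicates were merged for the peak list is not given in the sources used here. The deposited values used were the peak starts and ends (other columns hold names), which lie on a grid of 10 bases, so all widths are multiples of 10. Broad calling joins nearby enriched stretches, which decides how many gaps remain. The list holds no read counts, so the depth per sample cannot be read from it.

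Gaps were taken as start minus previous end and joined to GENCODE 44 start sites, without the Y copies of regions shared with X. Python 3.11.15, numpy 2.4.6, scipy 1.17.1 and matplotlib 3.10.9 were used. Sequences came from hg38, against which all 35116 RefSeq promoter sequences checked were identical. 1 short gap without any called base was left out of GC content. Upstream and downstream follow the strand of the starts, and distances to an edge count the bases between. Shares carry Wilson and medians order-statistic intervals at 95%, and no test was run. The gap and width functions were tested on simulated peaks with known answers.

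Genes were named by rule: members of short lists with a start in a gap, up to 3 with the widest flanks from longer lists, the 10 with the widest flanks, the 5 with the largest width difference each way, the 5 gaps with most starts, those nearest the width limits and 1 example per motif, none from chromosome 8. Members of longer lists were otherwise named as counts required, after their values were seen, as were all histone genes. The gaps, the 21 lists and the 10 motifs were chosen with earlier results of these data known. The result of 1 list is not reported here. Alternatives were other gap limits, transcript sets and promoter windows, leaving out narrow peaks, and leaving out 3 chromosomes.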

Additional observations from a re-analysis of the deposited data

How the results depend on the processing

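No paired analysis was possible because replicates have no column of their own in the peak list, and for the same reason no replicate could be left out. Of 147 alternative values for 41 results no difference changed sign (counts and single shares cannot), 96 moved by less than their counting interval (counts by less than 1.5 times) and 51 moved by more; the cause was not tested beyond what each setting leaves out. The 588 gaps became 340 with a limit of 500 bases, 329 with protein-coding transcripts, 289 with canonical transcripts and 357 without peaks under 600 bases. Their share of short gaps became 7.90% up to 500 bases, 10.5% up to 2000 bases, 5.19% and 4.56% with these transcript sets, and 7.61% without chromosomes 8, 16 and 17, an alternative chosen after seeing the data. The 458 protein-coding genes became 272 up to 500 bases, 185 with canonical transcripts and 280 without narrow peaks. Start sites on both strands fell to 4.56% of gaps with protein-coding transcripts. The central share became 44.6% up to 500 bases, 46.6% with canonical transcripts and 44.4% without the 3 chromosomes, and the difference of edge distances -119 bases with canonical transcripts. The flank difference became -40 bases where gaps with a start site inside a flanking peak were left out. The GC difference was 11.2 percentage points up to 2000 bases, 17.2 and 18.8 with protein-coding and canonical transcripts and 9.38 without the 3 chromosomes. The CpG ratio difference was 0.373 up to 500 bases, 0.173 up to 2000, 0.509 and 0.534 with these transcript sets and 0.210 without the 3 chromosomes. In a window of 150 bases the gap promoter shares were 1.08% for TGACGTCA, 0% for TGAGTCA, 3.78% for TGANNTCA, 40.5% for CCAAT, 51.9% for GGGCGG and 14.6% for CCGGAAG, against 2.73%, 1.03%, 4.72%, 22.9%, 64.2% and 16.4% of peak promoters. The order of gap and peak promoters so turned for TGANNTCA and CCGGAAG, with overlapping intervals in either window. Without the 3 chromosomes they were 66.3% for CCAAT, 3.06% for AAGATGGCG and 0% for TGAGTCA and TCTCGCGAG. With canonical transcripts the lists gave 0% for ATF/CREB, replication, proteasome, aminoacyl-tRNA synthetase and splicing genes, 1.12% for cytosolic ribosomal, 3.57% for initiation factor, 1.57% for ZNF and 0.802% for solute carrier genes. Up to 500 bases they gave 0% for AP-1 and mitochondrial ribosomal genes, 2.25% for cytosolic ribosomal and 0.802% for solute carrier genes. What limits these values is 1 list with no depth: a gap says that no peak was called there, not that acetylation is absent.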
